A study of Mus musculus with 9 samples.

Results

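Immediate early genes were followed through the cell types of the mouse thyroid after Notch pathway blockade. The set comprised 10 of the 52636 genes in the count table, chosen by name: Fos, Fosb, Jun, Junb, Jund, Atf3, Egr1, Nr4a1, Ier2 and Ier3. Their UMIs (unique molecular identifiers, each standing for 1 captured RNA molecule) were summed per pool of mice and per cell label deposited by the authors. Male C57BL/6 mice received 1 intraperitoneal injection of antibody and their thyroids were taken on day 7. Their age is given as 10 to 12 weeks in the series design and as 10 to 14 weeks in a protocol. The control group (RW) received anti-ragweed antibody at 40 mg/kg. The ligand blockade group (aJ1aJ2) received anti-Jag1 and anti-Jag2 at 20 mg/kg each, and the receptor blockade group (aN1aN2) received anti-Notch1 at 5 mg/kg and anti-Notch2 at 10 mg/kg. Each group had 3 pools, and each pool held the thyroids of 6 mice, so animals within a pool cannot be separated. All 9 pools were digested with Liberase for 30 min at 42 °C with a Rock inhibitor in the medium, and no undigested tissue was analysed here. Titles carry sample names from different ranges, lettered for this text and not by the authors. RW 3 and aJ1aJ2 1 form series A, the other RW and aJ1aJ2 pools form series B, and the 3 aN1aN2 pools alone form series C, so receptor blockade and series C cannot be told apart. The titles of the pools called RW 3 and aJ1aJ2 1 carry no replicate number, and theirs are names only.

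Immediate early genes are transcribed within minutes of a stimulus, by transcription factors that are already present and need only be phosphorylated, among them CREB and the serum response factor with its partners. The Fos and Jun families encode basic leucine zipper proteins that pair to form AP-1, and Atf3 encodes a stress-induced member of the related ATF family. Egr1 encodes a zinc finger factor, Nr4a1 an orphan nuclear receptor (Nur77), and Ier2 and Ier3 small short-lived proteins, of which Ier3 is linked to cell survival. Warm enzymatic digestion of tissue is itself a known stimulus of these genes, so RNA of this class in a cell suspension can come from the animal or from its preparation.

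Promoter windows of 300 bases, from 250 before to 50 after the RefSeq start site, were matched for 8 of the 10 genes (GRCm38.p6), and for Egr1 and Ier2 none was printed or searched. The windows of Nr4a1, Fos and Junb are printed because these 3 genes moved in the fibroblast label and Nr4a1 moved the other way in endothelium. They lie at chr15:101266596-101266895 (plus strand), chr12:85473640-85473939 (plus strand) and chr8:84978699-84978998 (minus strand), and each reads 5′ to 3′ on the strand of its gene. The Nr4a1 window is at a start site inside the annotated span of the gene. Capitals mark TGACG or its reverse complement CGTCA, the core of the cyclic AMP response element bound by CREB.
Nr4a1: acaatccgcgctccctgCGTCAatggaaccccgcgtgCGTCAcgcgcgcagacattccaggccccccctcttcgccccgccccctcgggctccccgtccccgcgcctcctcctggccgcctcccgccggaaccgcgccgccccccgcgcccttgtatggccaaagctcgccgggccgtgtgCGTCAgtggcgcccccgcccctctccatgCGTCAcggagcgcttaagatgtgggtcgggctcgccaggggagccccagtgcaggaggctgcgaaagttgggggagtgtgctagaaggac
Fos: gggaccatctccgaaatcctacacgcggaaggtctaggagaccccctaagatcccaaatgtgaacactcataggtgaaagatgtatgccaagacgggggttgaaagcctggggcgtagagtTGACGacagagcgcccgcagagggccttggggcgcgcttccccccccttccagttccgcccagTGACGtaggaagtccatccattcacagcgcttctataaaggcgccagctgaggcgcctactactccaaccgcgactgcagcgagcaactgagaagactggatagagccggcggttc
Junb: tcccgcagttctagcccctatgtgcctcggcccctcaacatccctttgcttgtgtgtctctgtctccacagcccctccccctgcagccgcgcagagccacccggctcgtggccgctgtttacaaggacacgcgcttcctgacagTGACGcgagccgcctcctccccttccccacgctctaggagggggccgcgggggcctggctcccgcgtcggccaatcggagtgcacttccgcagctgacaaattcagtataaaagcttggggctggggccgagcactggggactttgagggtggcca
The core stood at −233, −213, −69 and −40 from the start site in Nr4a1, at −129 and −66 in Fos and at −106 in Junb, with matches on either strand. It was present in 5 of the 8 windows, and in 20.8% of all 32851 windows of this length. Atf3 and Fosb were the other genes with it, with 1 match each. Of the other motifs searched on both strands, the palindrome TGACGTCA was in 1.79% of all windows, the AP-1 site TGACTCA in 5.2%, the RBPJ-type motif GTGGGAA in 6.38% and the CArG box in 1.63%, and none of these 4 was in a window of the 8 genes. The EGR motif GCGGGGGCG, in 2.91% of all windows, was in those of Fosb and Nr4a1, and the heat shock motif GAANNTTC, in 7.86%, was in that of Jun. TGACGTCA holds the core TGACG, so the searches overlap. Sequence outside these windows was not searched, so a motif missing here can lie farther from the start site.

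The positions are those of GRCm38 with GENCODE M21. Fos was at chr12:85473890-85477273 on the plus strand, Fosb at chr7:19302696-19310051 on the minus strand and Atf3 at chr1:191170296-191218039 on the minus strand. Jun was at chr4:95049034-95052222 on the minus strand, Junb at chr8:84974484-84978718 on the minus strand and Jund at chr8:70698949-70700616 on the plus strand. Egr1 was at chr18:34859823-34864984 on the plus strand, Nr4a1 at chr15:101254269-101274795 on the plus strand, Ier2 at chr8:84661331-84662852 on the minus strand and Ier3 at chr17:35821684-35822923 on the plus strand.

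The table held 63121420 UMIs in 10186 cells with 16 cell labels. Pools had 583 to 1805 cells and 3013324 to 11880793 UMIs. The median cell of the aN1aN2 pools had 2098 to 2237 UMIs and 3.4% to 4.5% mitochondrial UMIs, against 2823 to 4149 UMIs and 5.3% to 9.2% in the other pools. Of 10171 distinct barcodes, 15 occurred in 2 or more libraries. Thyrocyte markers were highest in Th1 for 7 of 10 genes, and all 6 fibroblast markers were highest in F. Of 8 endothelial markers, 4 were highest in EC1, 3 in EC4, 1 in EC2 and 0 in EC3. All 6 macrophage markers were highest in M, all 5 mural markers in SM and all 5 Schwann markers in S, while T1 had 2 of 5 T and NK markers and Th3 had 0 of 10 thyrocyte markers highest. The authors' labels are kept, with EC3 and Th3 the highest label for none of the markers of their names. Levels are counts per 1000000 UMIs of the summed cells (CPM). The labels give no further replicate within a pool, so p-values measure the spread between these pools.

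In the RW pools the genes had different homes, and their levels are given as a description. Nr4a1 was high in the endothelial labels EC4 and EC1, with a lowest, median and highest pool of 78.9, 136 and 242 CPM in EC4 and 61.1, 83.0 and 168 CPM in EC1, and low in Th1, with 0.667, 3.06 and 6.00 CPM. The endothelial label EC2 had only 19.0 to 34.3 CPM. That was less than in the labels SM (62.7 CPM, 1 pool) and S (44.8 to 56.3 CPM), and within the range of F (4.36 to 73.8 CPM). The ranges of EC4, EC1 and EC3 overlapped, and none overlapped that of Th1. Egr1 had 106, 126 and 299 CPM in F and 19.4, 22.1 and 45.3 CPM in EC1, ranges that were apart. Jund, the Jun family member that is commonly present without a stimulus, had 728, 847 and 889 CPM in F and 448, 618 and 622 CPM in Th1, but 226, 247 and 289 CPM in EC1 and 149, 156 and 172 CPM in EC4. Jun had the reverse order of endothelium and thyrocytes, with 317, 333 and 394 CPM in EC1 and 69.2, 92.1 and 192 CPM in Th1. Junb was highest in T1, with 224, 402 and 635 CPM, and had 55.5, 78.5 and 80.8 CPM in F and 23.4, 39.6 and 45.5 CPM in Th1. Fos spread widely between pools, with 29.3, 59.0 and 212 CPM in EC3 and 2.00, 8.41 and 73.5 CPM in Th1, so its order between these labels was not resolved. Ier2 had 87.8, 106 and 167 CPM in EC1 and 24.0, 27.5 and 54.4 CPM in Th1, and Ier3 had 57.6, 63.1 and 84.4 CPM in EC1 and 10.0, 14.0 and 14.3 CPM in Th1. Fosb and Atf3 were low in most labels. Fosb had 4.36, 16.2 and 35.1 CPM in F, and Atf3 had 21.05, 32.0 and 52.2 CPM in M. Erythroid labels were close to empty: the 9 genes other than Jund had 23 of 2235469 UMIs in Eryth1 and 10 of 8602777 in Eryth2. Globin RNA fills these cells, which lowers the CPM of every other gene.

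**Figure D1:**
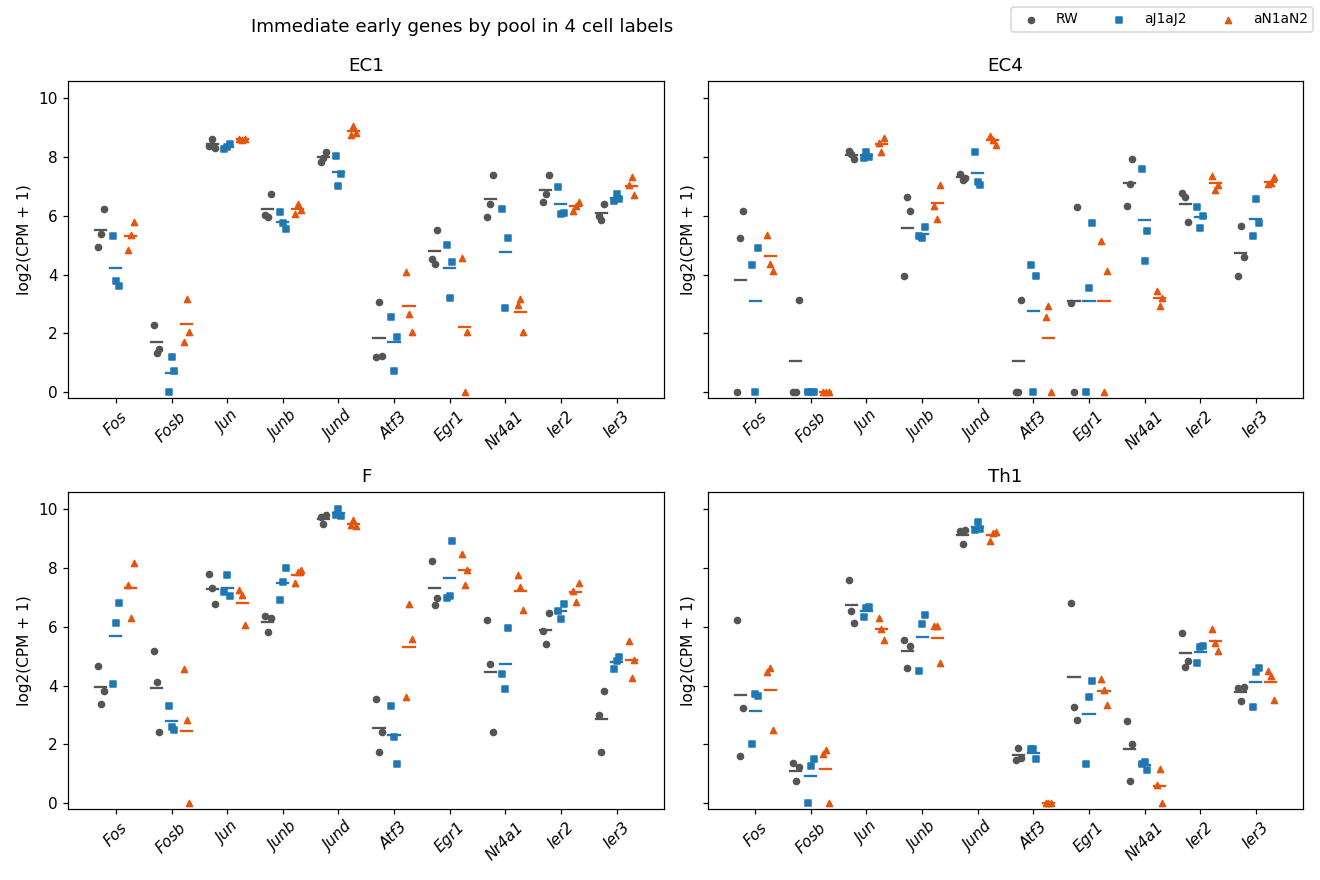
Level of each immediate early gene, as log2(CPM + 1), in each pool for the labels EC1, EC4, F and Th1. Points are pools (circles RW, squares aJ1aJ2, triangles aN1aN2) and bars are the means of the plotted values. In EC1 and EC4 all 3 aN1aN2 pools lie below all 3 RW pools for Nr4a1, and in F they lie above them.

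The design allowed pool-wide differences, such as those from dissociation, to be set beside differences between groups, because each pool supplied several labels. In 4 labels with all 9 pools (EC1, EC4, F and Th1), cell label held a median of 50.5% of the variation in log2 CPM over the 10 genes. Group held 7.01%, the combination of group and label 13.7%, pool within group 5.02% and the rest, which is pool by label, 17.1%. A shift shared by all labels of a pool would raise the pool term above the rest. The mean square of the pool term over that of the rest was 2.67 for Jun, 2.51 for Egr1 and 1.78 for Jund, and 0.307 for Fos, 0.589 for Ier2 and 0.708 for Junb. The pool term was thus the smaller for Fos, Ier2 and Junb. For Fosb (0.788) and Atf3 (0.929) it was below 1 with a prior count of 2 but 1.07 for both with a prior count of 0.5, so their order was not resolved, while Ier3 (1.34) and Nr4a1 (1.33) were slightly above 1. For the group term the same ratio was 24.2 for Ier3, 14.2 for Jund, 6.16 for Nr4a1 and 5.45 for Ier2, and for group by label it was 11.3 for Jund and 8.33 for Nr4a1.

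**Figure D2:**
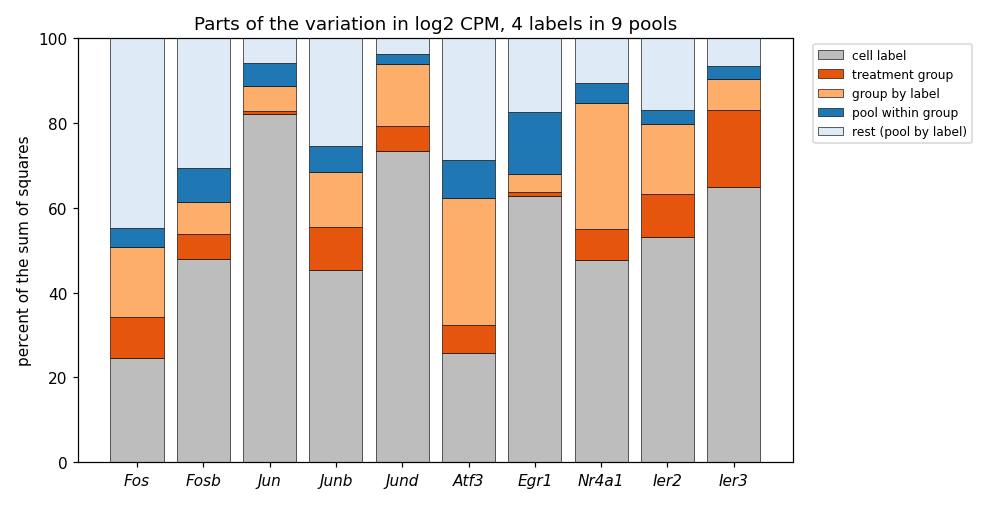
Parts of the sum of squares of log2 CPM (prior count 2), in percent, for each gene over EC1, EC4, F and Th1 in 9 pools. Stacked bars give cell label, treatment group, group by label, pool within group and the rest. The group by label part is 29.7% for Nr4a1 and 29.8% for Atf3, against a median pool part of 5.02%.

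The deviation of a pool changed sign between the 4 labels in some pools and kept it in others. RW 1 stood above its group in Th1 by a mean of 0.715 log2 units over the 10 genes, with 9 of 10 above, and in F by 0.564, with 9 of 10 above. In the same pool the mean was −0.237 in EC1, with 1 of 10 above, and −0.667 in EC4, with 3 of 10 above. RW 3 had the opposite order, with 0.298 in EC1 and 0.697 in EC4 but −0.251 in F and −0.217 in Th1. aJ1aJ2 3 had −0.396 in EC1 and −0.502 in EC4 and 0.215 in Th1. RW 2, aN1aN2 1 and aN1aN2 3 kept 1 sign in all 4 labels. In EC1, EC4, F and Th1, RW 2 had −0.0609, −0.03, −0.313 and −0.497, aN1aN2 1 had 0.144, 0.293, 0.183 and 0.232, and aN1aN2 3 had −0.148, −0.00793, −0.142 and −0.411. Since deviations are taken within a group, those of the 3 pools of a group sum to 0.

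**Figure D3:**
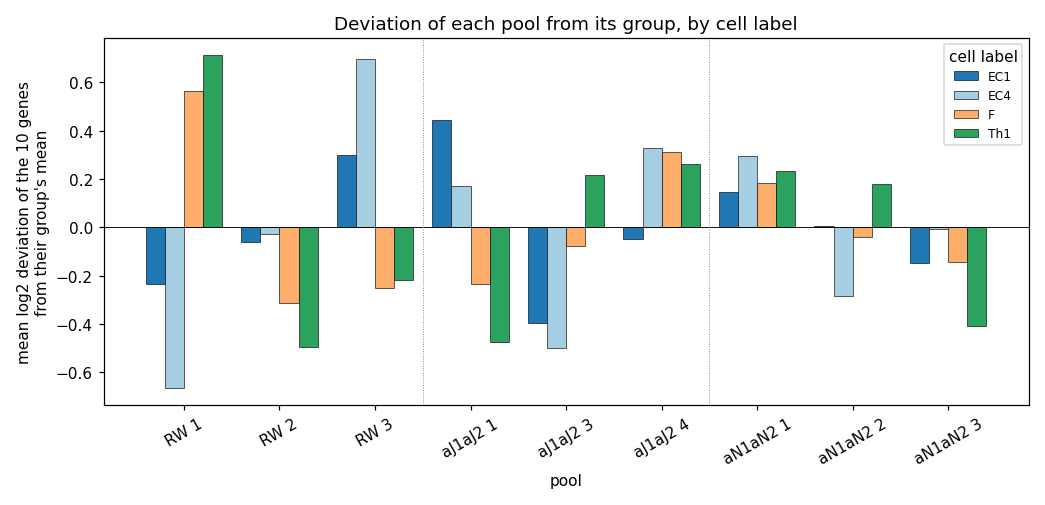
Mean deviation of the 10 genes from their group's mean, in log2 units, for each pool (x axis) and for the labels EC1, EC4, F and Th1 (bars). RW 1 is above 0 in F and Th1 and below 0 in EC1 and EC4, and RW 3 the reverse.

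The high values of the RW 1 thyrocytes were unevenly spread over cells. Fos in Th1 had 73.5 CPM in RW 1, but 2.00 and 8.41 CPM in RW 2 and RW 3, and Egr1 had 111, 8.67 and 6.11 CPM. In RW 1 the 331 Fos UMIs lay in 51 of 180 Th1 cells, 54.4% of them in the 10 cells with most, and the 498 Egr1 UMIs lay in 55 of the 180 cells, 50.6% of them in 10 cells. A like pattern was present in aJ1aJ2 4 for Egr1. There, 178 UMIs in EC2 lay in 45 of 145 cells, with 56.2% in 10 cells, and 315 UMIs in F lay in 53 of 122 cells, with 54.6% in 10 cells. The EC2 level of that pool was 357 CPM, against 0 to 48.6 CPM in the other 6 pools with enough EC2 cells.

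With receptor blockade Nr4a1 fell and Jund and Ier3 rose in the endothelial labels EC1 and EC4. In EC2 Ier3 alone was called, and in EC3 no member was. In EC1, Nr4a1 was at 61.1, 83.0 and 168 CPM in the RW pools and at 6.9, 8.0 and 3.2 CPM in the aN1aN2 pools. The groups did not overlap, with means of 104 ± 56.6 CPM (SD, n = 3) and 6.01 ± 2.53 CPM (SD, n = 3). The log2 change was −4.11 (SE 0.80, adjusted p = 0.000748), on 584 UMIs in RW and 7 in aN1aN2, so the size of the fold rests on few molecules. In EC4, Nr4a1 was at 78.9, 136 and 242 CPM in the RW pools and at 9.9, 6.6 and 8.3 CPM in aN1aN2, again apart, with a log2 change of −4.12 (SE 0.69, adjusted p = 7.2e-05) on 53 and 4 UMIs. In EC3 the change of Nr4a1 was −2.11 (SE 0.77, adjusted p = 0.136), that of Jund 0.42 (SE 0.20, adjusted p = 0.265) and that of Ier3 0.20 (SE 0.51, adjusted p = 0.875), and none passed. In EC2 Jund had 0.17 (SE 0.21, adjusted p = 0.652). Depth was equalised by thinning each cell to 1000 UMIs and leaving out shallower cells (1 in EC1 of RW, and 142 in RW and 219 in aN1aN2 in EC4). The share of EC1 cells with Nr4a1 was then 6.63% to 13.9% over the RW pools and 0% to 1.33% over the aN1aN2 pools, against 30.9% to 46.9% and 1.33% to 4.17% before thinning. In EC4 the thinned shares were 9.09% to 13.6% and 0% to 1.67%.

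Jund in EC1 was at 226, 247 and 289 CPM in the RW pools and at 432, 534 and 446 CPM in aN1aN2, with no overlap and a log2 change of 0.85 (SE 0.18, adjusted p = 0.00146). In EC4 it was at 172, 149 and 156 CPM and at 417, 381 and 340 CPM, with a change of 1.16 (SE 0.24, adjusted p = 0.000906). The Jund share of thinned EC1 cells was 19.4% to 20.9% in RW and 29.3% to 33.3% in aN1aN2. Ier3 rose in EC1, EC4 and EC2. In EC1 it went from 63.1, 57.6 and 84.4 CPM to 130, 160 and 104 CPM (log2 change 0.90, SE 0.19, adjusted p = 0.00163). In EC4 it rose from 14.4, 49.6 and 23.4 CPM to 134, 138 and 157 CPM (2.32, SE 0.45, adjusted p = 0.000383). In EC2, with RW 1 and RW 2 only, it rose from 52.2 and 17.1 CPM to 140, 255 and 370 CPM (2.58, SE 0.49, adjusted p = 0.002). No overlap of the groups was seen for Ier3 in these labels. The EC2 call was lost with the heat shock covariate (2.19, adjusted p = 0.692). In EC2 the heat shock list summed to 5766 to 6083 CPM in RW and 3738 to 4368 CPM in aN1aN2, erythroid markers to 411 to 494 and 1341 to 1772 CPM, and parathyroid markers to 42.8 to 133 and 195 to 437 CPM. Thyrocyte markers there summed to 645 to 668 and 858.5 to 1596 CPM, muscle markers to 326 to 475 and 547 to 837 CPM and T and NK markers to 4.75 to 8.57 and 0 CPM, and the median EC2 cell had 3657 to 4037 and 1271 to 1819 UMIs. Apart from the covariate fit the part of these quantities was not tested. Among all tested genes, 17.8% were called in EC1, 21.1% in EC4 and 15.5% in EC2, against 3 of 8, 3 of 6 and 1 of 4 tested members. With shares this high among all genes, 1 called member of 4 is near the background in EC2. Fos, Jun, Junb, Egr1 and Ier2 did not pass in EC1.

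Other quantities moved with receptor blockade in EC1 and EC4. Summed endothelial markers were at 19060 to 19870 CPM in RW and 14990 to 15580 CPM in aN1aN2, thyrocyte markers at 717 to 993 and 1335 to 1958 CPM, parathyroid markers at 47.1 to 92.3 and 228 to 334 CPM, and macrophage markers at 83.0 to 218 and 0 to 9.5 CPM. C cell markers in EC1 summed to 27.1 to 63.5 CPM in RW and 130 to 171 CPM in aN1aN2. The median EC1 cell had 4679 to 4968 UMIs in the RW pools and 2518 to 3534 in the aN1aN2 pools, with 4.77% to 6.31% and 3.75% to 4.41% mitochondrial UMIs. The 15 genes of the heat shock list summed to 5246 to 5346 CPM in EC1 of RW, 3909 to 4833 CPM in aJ1aJ2 and 4620 to 5193 CPM in aN1aN2. In EC4, mitochondrial UMIs were 9.27% to 13.9% in RW and 4.80% to 6.18% in aN1aN2. Erythroid markers there summed to 218 to 1065 and 1667 to 2386 CPM, C cell markers to 64.6 to 86.7 and 190.5 to 464 CPM, endothelial markers to 18980 to 20590 and 16900 to 17920 CPM and the heat shock list to 3462 to 4558 and 4066 to 4308 CPM. Schwann markers in EC4 summed to 35.9 to 663 CPM in RW and 4.96 to 19.7 CPM in aN1aN2, macrophage markers to 7.80 to 93.3 and 0 to 4.96 CPM, and mural markers to 46.8 to 61.9 and 64.5 to 199 CPM. The ranges of RW and aN1aN2 were apart for each of these, except for the heat shock list in EC4. The part of these quantities in the results was not tested beyond a fit with the heat shock level as a covariate. In that fit 242 of the EC1 genes were called, against 1664 without it, and Nr4a1 had −4.39 (adjusted p = 0.0958). Ier3 had 0.74 (adjusted p = 0.453) and Jund 1.28 (adjusted p = 0.0751) in EC1, while the EC4 calls of all 3 genes were kept.

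**Figure D4:**
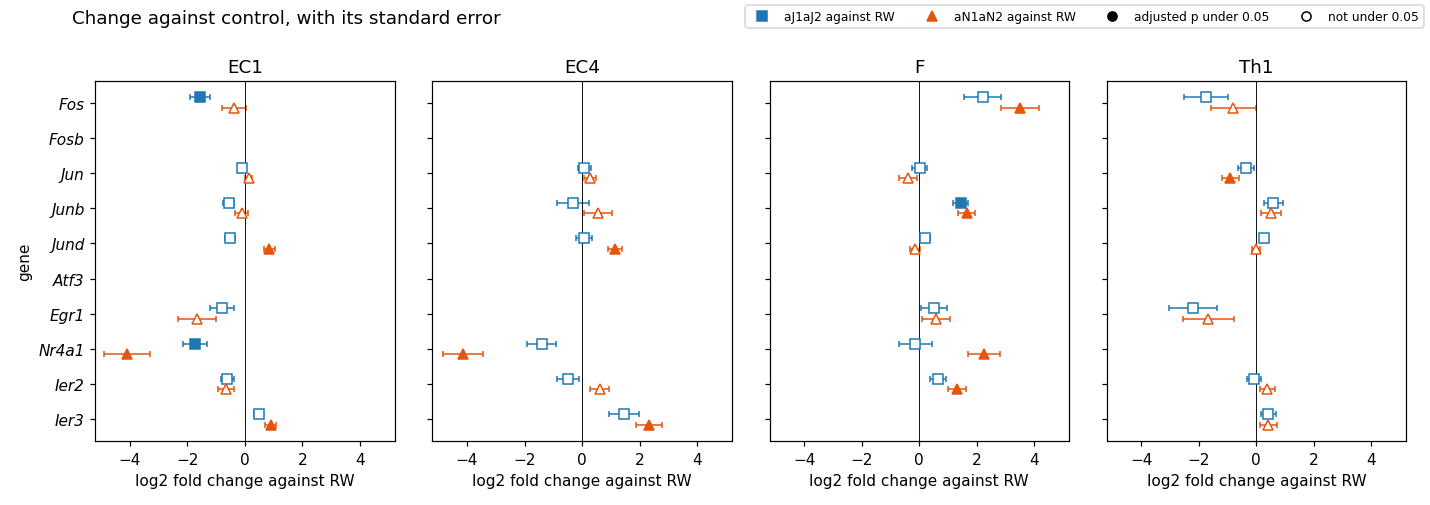
Log2 fold change of each tested gene against RW with its standard error, from edgeR, in EC1, EC4, F and Th1 (squares aJ1aJ2, triangles aN1aN2). Filled symbols have an adjusted p under 0.05, and genes without a symbol did not pass the filter on low counts. Nr4a1 lies at −4.11 in EC1 and −4.12 in EC4, and at 2.25 in F, for receptor blockade.

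In fibroblasts the same treatment raised 4 genes. Fos in F was at 24.6, 9.2 and 13.1 CPM in the RW pools and at 169, 78.4 and 290 CPM in aN1aN2, apart, with a log2 change of 3.50 (SE 0.66, adjusted p = 0.000837). Junb, its frequent AP-1 partner, was at 80.8, 55.5 and 78.5 CPM in the RW pools and at 180, 229 and 243 CPM in aN1aN2 (1.65, SE 0.31, adjusted p = 0.000769). Ier2 was at 56.2, 41.6 and 87.2 CPM and at 147, 115 and 178 CPM (1.32, SE 0.30, adjusted p = 0.00448). None of these 3 overlapped between the groups. Nr4a1 was at 73.8, 25.4 and 4.36 CPM in the RW pools and at 214, 163 and 93.4 CPM in aN1aN2 (2.25, SE 0.55, adjusted p = 0.00689), also apart and the reverse of its direction in EC1 and EC4. Its call was lost in DESeq2 (adjusted p = 0.0873) and without aN1aN2 1 (adjusted p = 0.0586). With 1 pool left out its change ranged from 1.8 to 3.2. The share of all genes called in F was 19.8%, against 4 of 7 tested members, and the members' median change of 1.32 stood beside 0.01 for all genes. Egr1, Jun and Jund in F did not pass. Ier3 had too few UMIs to be tested in F, at 7.03, 2.31 and 13.1 CPM in RW, 22.4, 27.6 and 30.3 CPM in aJ1aJ2 and 45.1, 18.1 and 28.0 CPM in aN1aN2, with RW below both other groups on 6 UMIs in all. Atf3 did not reach the filter: it was at 10.5, 2.3 and 4.4 CPM in the RW pools and at 11.3, 109 and 46.7 CPM in aN1aN2, on 5 and 25 UMIs. The lowest aN1aN2 pool was just above the highest RW pool, and 12 of the 18 UMIs of aN1aN2 2 were in 1 cell.

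The fibroblast values rest on few cells and few UMIs, because F held 26 to 51 cells in the RW pools and 33 to 47 in the aN1aN2 pools. The Fos UMIs numbered 7, 4 and 3 in RW, in 4, 3 and 2 cells, and 30, 13 and 31 in aN1aN2, in 7, 5 and 3 cells. In aN1aN2 3 a single cell held 25 of the 31. The share of F cells with Fos was 5.88% to 9.30% in RW and 9.09% to 14.9% in aN1aN2. After thinning 0 of 109 RW cells and 6 of 106 aN1aN2 cells kept a Fos UMI. Of the RW cells 9 had one before thinning, so the 0 was made by the thinning and the thinned shares of Fos are not compared. For Nr4a1 the thinned shares were 0% to 8.57% and 7.69% to 13.6%, ranges that overlap. Cells under 1000 UMIs, 11 in RW and 15 in aN1aN2, were left out of the thinned shares. Of the markers, erythroid genes summed to 109 to 296 CPM in F of RW and 851 to 43670 CPM in aN1aN2, and fibroblast genes to 35530 to 45190 and 32150 to 37910 CPM. Mural markers summed to 139.5 to 284.5 and 103 to 113 CPM, and the median F cell had 5561 to 10030 UMIs in RW and 2295 to 3864 in aN1aN2. The part of these quantities in the changes was not tested. The heat shock list summed to 2835 to 3317 CPM in F of RW and 2165 to 2401 CPM in aN1aN2. With its level as a covariate the changes of Fos (1.56, adjusted p = 0.424), Junb (0.53, adjusted p = 0.596), Ier2 (0.53, adjusted p = 0.645) and Nr4a1 (1.5, adjusted p = 0.51) were no longer called.

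**Figure D5:**
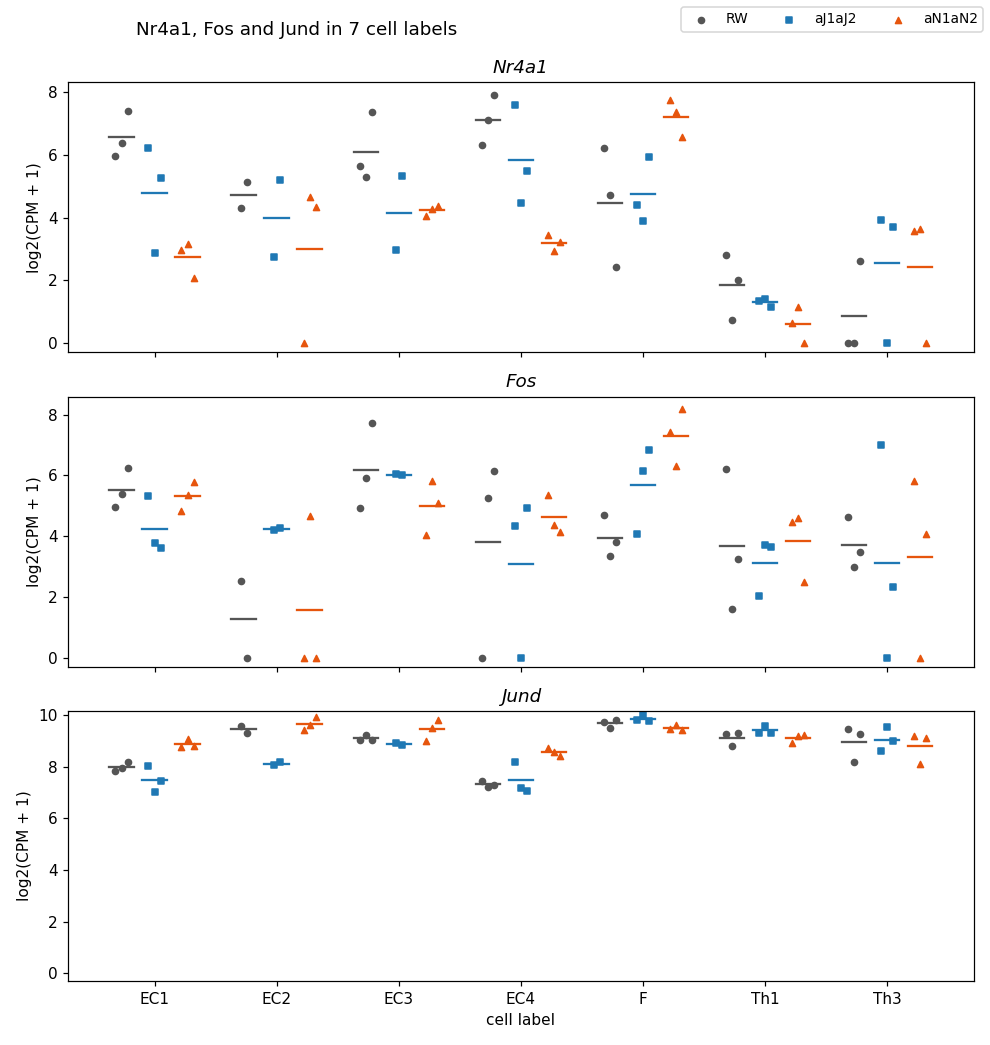
Levels of Nr4a1, Fos and Jund, as log2(CPM + 1), in each pool with at least 20 cells for 7 labels. Points are pools by group and bars are means of the plotted values. Nr4a1 separates the aN1aN2 and RW pools in EC1 and EC4 downward and in F upward, and Jund separates them in EC1 and EC4.

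In thyrocytes 1 of 7 tested members passed with receptor blockade, against 34.4% of all genes. Jun was that gene, and it fell. Jun was at 192, 92.1 and 69.2 CPM in the RW pools and at 78.3, 60.3 and 45.8 CPM in aN1aN2, overlapping, with a log2 change of −0.91 (SE 0.29, adjusted p = 0.0258). Without RW 1 Jun had −0.32 (adjusted p = 0.212), without aN1aN2 2 it had −0.85 (adjusted p = 0.0924) and without aN1aN2 3 −0.79 (adjusted p = 0.0864). DESeq2 gave −0.93 (adjusted p = 0.0716) and the fit with the heat shock covariate −1.22 (adjusted p = 0.415). In Th1, Schwann markers summed to 241.5 to 277 CPM in RW and 110 to 135 CPM in aN1aN2, parathyroid markers to 10.0 to 48.5 and 125 to 294 CPM and muscle markers to 1.72 to 4.22 and 5.73 to 37.6 CPM. The median Th1 cell had 12540 to 22560 UMIs in RW and 5737 to 7558 in aN1aN2. These ranges were apart, and their part was not tested. Without RW 1, Ier2 passed instead at 0.85 (adjusted p = 0.00676). Egr1 and Fos passed neither with all pools nor without RW 1, but turned direction without it. With receptor blockade, Egr1 went from −1.67 (adjusted p = 0.159) to 1.01 (adjusted p = 0.163) and Fos from −0.80 (adjusted p = 0.457) to 1.44 (adjusted p = 0.0555). Without RW 3, Egr1 was called as lower (−2.25, adjusted p = 0.0219). With ligand blockade, Egr1 went from −2.19 to 0.47 and Fos from −1.74 to 0.47. Atf3 had 22 UMIs in RW, 19 in aJ1aJ2 and 0 in aN1aN2, where a count of 0 allows up to 0.694 CPM over the group. The summed RW level was 2.82-fold above that value. This ratio leaves out the counting error of the 22 UMIs and the spread between pools, so it bounds no fold change. Atf3 did not pass the filter in Th1 and was not tested. Nr4a1, low in Th1, did not pass it either. Without the filter Nr4a1 was called as lower with receptor blockade (−2.39, adjusted p = 0.0159), beside 3856 of 22677 genes. A UMI of Nr4a1 was in 23 of 425 RW cells and 2 of 348 aN1aN2 cells before thinning, and in 1 and 0 after it.

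With ligand blockade 4 member tests were called, against 12 with receptor blockade. In EC1, Fos was at 29.9, 41.1 and 74.1 CPM in the RW pools and at 39.2, 12.7 and 11.3 CPM in aJ1aJ2, overlapping (log2 change −1.56, SE 0.36, adjusted p = 0.0334). Nr4a1 in EC1 was at 73.5, 6.3 and 37.1 CPM in aJ1aJ2, also overlapping with RW (−1.74, SE 0.43, adjusted p = 0.044). The call of Fos was kept in 9 and that of Nr4a1 in 7 of 17 other settings. In EC1, macrophage markers were at 83.0 to 218 CPM in RW and 25.8 to 42.5 CPM in aJ1aJ2, and thymocyte markers at 0 to 3.74 and 4.635 to 42.5 CPM. Mitochondrial UMIs were at 4.77% to 6.31% and 6.45% to 7.15%, and median UMIs per cell at 4679 to 4968 and 3473 to 4071. These ranges were apart, and their part was not tested. With the heat shock covariate neither gene was called (Fos −2.34, Nr4a1 −1.99), nor with only the groups compared (adjusted p = 0.0823 and 0.11). In DESeq2 Fos had −1.37 (adjusted p = 0.0943) and Nr4a1 −1.46 (adjusted p = 0.853). Without aJ1aJ2 3 Fos had −1.29 (adjusted p = 0.307) and Nr4a1 −1.09 (adjusted p = 0.278), and without aJ1aJ2 4 −1.24 (adjusted p = 0.296) and −1.87 (adjusted p = 0.209). Without RW 3 Fos had −1.07 (adjusted p = 0.122) and Nr4a1 −1.19 (adjusted p = 0.15), and without RW 2 −1.66 (adjusted p = 0.056) and −1.87 (adjusted p = 0.072). Leaving out aN1aN2 3, which enters through the shared spread, gave adjusted p-values of 0.0555 and 0.0766, and Nr4a1 was also not called without aN1aN2 1 or aN1aN2 2 (0.0724 and 0.0651). In EC2, Jund was at 764 and 634 CPM in the RW pools and at 266 and 287 CPM in aJ1aJ2, apart (−1.32, SE 0.22, adjusted p = 0.00502). The call was lost without RW 1 (−1.15, adjusted p = 0.0543), which leaves 1 RW pool there, and with the heat shock covariate (−1.17, adjusted p = 0.747). The heat shock list summed to 5766 to 6083 CPM in EC2 of RW and to 3795 to 4020 CPM in aJ1aJ2. Muscle markers there summed to 326 to 475 and 486 to 575 CPM, and the median cell had 3657 to 4037 and 2920 to 3177 UMIs. The part of the last 2 was not tested. In F, Junb was at 80.8, 55.5 and 78.5 CPM in the RW pools and at 119, 182 and 256 CPM in aJ1aJ2, apart (1.44, SE 0.27, adjusted p = 0.0181), and the call was lost without RW 1 (adjusted p = 0.0577), RW 2 (0.141), aJ1aJ2 3 (0.0827) or aJ1aJ2 4 (0.0813). The shares of all genes called with ligand blockade were 1.43% in EC1, 1.91% in EC2, 0.579% in F, 0.903% in EC4 and 0.612% in Th1, the last 2 with no member called. Beside them stood 2 of 8 members in EC1, 1 of 4 in EC2 and 1 of 7 in F.

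Within series B, which holds RW and ligand blockade pools alone, 11 of the 56 member tests were called. Calls over all genes rose too in this setting: 632 of 9365 in EC1, against 134 of 9369 with all pools, 649 of 11395 in Th1, against 65 of 10627, and 71 of 6727 in F, against 28 of 4840. In EC1 these were Jund (−0.67, adjusted p = 0.0027), Ier3 (0.72), Fos (−1.57, adjusted p = 0.0014), Ier2 (−0.54) and Nr4a1 (−1.75, adjusted p = 0.0072). In F these were Fos (2.54, adjusted p = 0.0075) and Junb (1.74, adjusted p = 0.0035). Jund in EC2 (−1.30), Jun in S (1.18), Egr1 in Th1 (−2.48) and Junb in Th1 (0.93) made up the rest. These fits have 2 pools a group, except S, where RW 1 was the only RW pool with enough cells. The lone pool is assumed there to vary like the other group, and the Jun call in S has no replicate check on the RW side. With the range of sample names as a term over series A and B, 4 were called, beside 149 of 9197 genes in EC1 and 54 of 5728 in F. These were in EC1 Fos (−1.33) and Nr4a1 (−1.55), and in F Fos (2.24) and Junb (1.44).

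Receptor and ligand blockade were also set against each other. Jund was higher with receptor blockade in EC1 (1.38, SE 0.19, adjusted p = 1.81e-05), in EC2 (1.49, SE 0.21, adjusted p = 0.000368) and in EC4 (1.09, SE 0.24, adjusted p = 0.00149), with 13.5%, 10.5% and 17.2% of all genes called. In EC4 Ier2 was higher (1.09, SE 0.33, adjusted p = 0.0231) and Nr4a1 lower (−2.72, SE 0.84, adjusted p = 0.0237). Without aN1aN2 1 these had adjusted p-values of 0.129 and 0.0589. The Ier2 call was also lost without aJ1aJ2 3 (0.144) or aJ1aJ2 4 (0.0724), in DESeq2 (0.173) and with the heat shock covariate (0.0972). The Nr4a1 call was also lost without aJ1aJ2 1 (0.0962), aN1aN2 2 (0.0618) or aN1aN2 3 (0.0503), and with the heat shock covariate (−1.67, adjusted p = 0.133). Nr4a1 was higher in F (2.38, SE 0.50, adjusted p = 0.00287), where 16% of genes were called, but the call was lost in DESeq2 (adjusted p = 0.0702) and with the heat shock covariate (1.54, adjusted p = 0.62). With 1 pool left out this change ranged from 1.93 to 3.32. In SM, the mural label, Egr1 had 143 and 328 CPM in aJ1aJ2 3 and aJ1aJ2 4 and 13.2, 15.7 and 0 CPM in aN1aN2 (log2 change −4.56, SE 0.69, adjusted p = 8.39e-06). This was on 58 and 2 UMIs, a ratio of 23.6 with a 95% counting interval of 6.24 to 199, and 4.05% of genes were called. The Egr1 call in SM was lost without aJ1aJ2 4 (adjusted p = 0.261). The comparison with RW and that with the other antibody share aN1aN2 pools, and both comparisons against RW share its pools.

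The difference between cell types was tested in fits with a term for each pool, in which a shift common to both labels of a pool cancels. Between F and EC1, receptor blockade changed Nr4a1 by 6.08 more log2 units in F (SE 0.77, adjusted p = 1.45e-06), Fos by 3.66 (SE 0.71, adjusted p = 0.000912), Ier2 by 1.80 (SE 0.35, adjusted p = 0.00102) and Junb by 1.56 (SE 0.37, adjusted p = 0.00637). Jund went the other way (−1.12, SE 0.23, adjusted p = 0.0018). These were 5 of 8 members, against 5.67% of all genes. With 1 pool left out the Nr4a1 difference ranged from 5.38 to 7.37. With ligand blockade Fos differed by 3.70 (SE 0.65, adjusted p = 0.00254), Junb by 1.96 (SE 0.30, adjusted p = 0.000283) and Ier2 by 1.21 (SE 0.29, adjusted p = 0.0438), 3 of 8 members against 0.471% of all genes. The Ier2 call was lost without RW 2 (0.232), RW 3 (0.0663), aJ1aJ2 3 (0.0789), aJ1aJ2 4 (0.298) or aN1aN2 3 (0.0563). With 1 pool left out the Fos difference for ligand blockade ranged from 2.84 to 4.49. Between Th1 and EC1, receptor blockade differed for Jund (−0.81, SE 0.21, adjusted p = 0.0149) and Jun (−0.89, SE 0.28, adjusted p = 0.0486), 2 of 8 members against 8.69% of genes. Without RW 1 neither was called, with Jund at −0.63 (adjusted p = 0.0924) and Jun at −0.36 (adjusted p = 0.288). Jund was also not called without aN1aN2 1 (0.0912) or aN1aN2 2 (0.0895), and Jun without aJ1aJ2 3 (0.0636), aN1aN2 1 (0.082), aN1aN2 2 (0.16) or aN1aN2 3 (0.171), or among cells of at least 2000 UMIs (0.077). With ligand blockade no member differed between Th1 and EC1 at this threshold in edgeR, 2 were below a raw p of 0.05, and 0.369% of genes were called. The pair of F and EC1 was chosen after the calls were seen.

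Other labels gave no member call in edgeR with all pools and the filter on low counts. Without the filter Nr4a1 in EC3 was called as lower with ligand blockade (−1.95, adjusted p = 0.00103) and with receptor blockade (−2.18, adjusted p = 0.000186). Fos (−1.45, adjusted p = 0.00611) and Egr1 (−1.43, adjusted p = 0.0143) were also called as lower there with receptor blockade in that setting. In EC3 none of 8 tested members was called in the comparisons of aJ1aJ2 with RW, aN1aN2 with RW and aN1aN2 with aJ1aJ2, with 2, 1 and 2 at a raw p under 0.05, and 0.0618%, 5.91% and 1.27% of genes were called. In Th1, 0 of 7 members differed between the antibodies, where 22.3% of genes did. Th3 had 3 tested members with 0 called, beside 0%, 5.03% and 1.44% of genes. Eryth2 had only Jund, not called, beside 0.358%, 8.6% and 9.32% of genes. In M, S and T1, tested for ligand blockade alone with 4, 2 and 5 members, 0% of genes were called, and 77, 238 and 104 genes had a raw p under 0.05. Fosb did not pass the filter in any label.

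Related genes from lists compiled for the pathway are described by their counts. Of 51 other early response genes, 39 were tested in EC1, where 15 rose and 4 fell with receptor blockade and 5 fell with ligand blockade. Cebpd, a leucine zipper factor of the C/EBP family, rose in EC1 with receptor blockade (2.29, SE 0.22, adjusted p = 1.25e-07), as did Errfi1, a feedback inhibitor of the EGF receptor (2.76, SE 0.39, adjusted p = 2.68e-05). Hbegf, a ligand of that receptor, fell from a mean of 58.5 to 2.71 CPM (−4.43, SE 0.48, adjusted p = 8.08e-07), and Nr4a2, a paralog of Nr4a1, fell from 53.5 to 17.2 CPM (−1.61, SE 0.38, adjusted p = 0.00438). With ligand blockade Nr4a2 fell to 20.5 CPM in EC1 (−1.55, SE 0.28, adjusted p = 0.00401), as did Nr4a3 to 4.79 from 24.5 CPM (−2.68, SE 0.55, adjusted p = 0.0129) and the kinase gene Sik1 to 8.85 from 31.2 CPM (−2.23, SE 0.40, adjusted p = 0.00488). In Th1 the list had 20 higher and 2 lower of 38 with receptor blockade, in F 16 higher and 0 lower of 28 and in EC4 10 higher and 0 lower of 22. Gadd45b, a stress-response gene, rose in Th1 from 11.2 to 89.4 CPM (2.87, SE 0.24, adjusted p = 4.25e-07), and Maff, a small Maf factor, from 12.0 to 66.2 CPM (2.36, SE 0.19, adjusted p = 3.53e-07), while Phlda1 fell from 173.6 to 76.7 CPM (−1.18, SE 0.22, adjusted p = 0.000896) and Crem, a relative of CREB, from 27.1 to 17.2 CPM (−0.74, SE 0.20, adjusted p = 0.0109). Ligand blockade raised 1 of the 38 in Th1, Maff (1.40, SE 0.19, adjusted p = 0.00647), and none in F. The share of all genes called, given above for each label, is the background of these counts.

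Between the antibodies, receptor blockade was the higher for 17 and the lower for 3 of the 39 list genes in EC1. Cebpb, a C/EBP family factor, had 297 CPM with receptor and 38.3 CPM with ligand blockade (3.09, SE 0.21, adjusted p = 1.33e-09), and Sik1 62.3 and 8.85 CPM (3.21, SE 0.44, adjusted p = 2.49e-05). Hbegf (−3.66, SE 0.54, adjusted p = 5.61e-05) and Plk2, a polo-like kinase gene (−0.83, SE 0.23, adjusted p = 0.0205), were lower. In Th1, Fosl2, a Fos family gene outside the set, had 123 and 30.2 CPM (2.03, SE 0.20, adjusted p = 6.05e-06), and Cebpd 172 and 44.8 CPM (2.05, SE 0.39, adjusted p = 0.00171), while Phlda1 (−1.24, SE 0.23, adjusted p = 0.00113) and Irf1, an interferon regulatory factor gene (−0.79, SE 0.24, adjusted p = 0.0283), were lower.

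The other lists held fewer genes, and no test compared the lists. Of 15 heat shock genes, 2 rose and 7 fell in EC1 with receptor blockade and 5 fell with ligand blockade, and in Th1 1 rose and 5 fell with receptor blockade. With that treatment 17.8% of all genes were called in EC1 and 34.4% in Th1, and with ligand blockade 1.43% were called in EC1. Hspa1a, an inducible chaperone of the HSP70 family, fell in EC1 from 49.6 CPM in RW to 8.07 CPM in aJ1aJ2 (−2.59, SE 0.33, adjusted p = 0.000251) and to 6.94 CPM in aN1aN2 (−2.84, SE 0.49, adjusted p = 0.000211), and its neighbour Hspa1b, a near copy whose reads may be shared with it, fell by 2.25 (SE 0.30, adjusted p = 0.000356) and by 1.92 (SE 0.40, adjusted p = 0.00145). Hspb1 (0.49, SE 0.16, adjusted p = 0.0348) and Bag3 (0.59, SE 0.19, adjusted p = 0.0408) rose in EC1 with receptor blockade. In Th1, Hspa1a instead rose (0.58, SE 0.14, adjusted p = 0.0045), and Hsp90aa1 (−0.89, SE 0.10, adjusted p = 1.17e-05) and Hsph1 (−0.87, SE 0.23, adjusted p = 0.00853) fell. Between the antibodies, receptor blockade was the higher for 2 and the lower for 1 of the 15 in EC1, where 13.5% of all genes were called. Bag3 (0.87, SE 0.20, adjusted p = 0.00556) and Hspa8, a constitutive HSP70 chaperone (0.79, SE 0.16, adjusted p = 0.00118), were higher there, and Hspe1, a mitochondrial chaperonin gene, was lower (−0.61, SE 0.17, adjusted p = 0.0223). In Th1 4 of the 15 were lower, beside 22.3% of all genes, Hsp90aa1 (−0.74, SE 0.10, adjusted p = 0.000134) and Dnaja1 (−0.61, SE 0.12, adjusted p = 0.00241) among them. Of 17 AP-1 partners, with receptor blockade 2 of 14 rose in EC1 (Maff, 1.98, and Jdp2, 0.95), beside 17.8% of all genes, and 5 of 12 rose in F, beside 19.8%. In Th1 4 of 13 rose and 1 fell, close to the 34.4% of all genes called there, Fosl2 (2.01, SE 0.20, adjusted p = 2.02e-06) among the former and Maf (−0.62, SE 0.21, adjusted p = 0.036) the latter. Fosl2 fell in EC1 with ligand blockade (−1.37, SE 0.29, adjusted p = 0.0162). Between the antibodies, 3 of 14 were higher with receptor blockade in EC1, Maff (2.49, SE 0.34, adjusted p = 2.15e-05) and Fosl2 (1.89, SE 0.32, adjusted p = 0.00027) among them. In Th1 3 of 13 were higher, near the 22.3% of all genes, with Fosl2 as above and Mafk, another small Maf factor (1.13, SE 0.25, adjusted p = 0.00401), among them. Of 30 upstream factors and kinases, 1 of 29 rose and 1 fell in EC1 with receptor blockade: Mrtfb, a coactivator of the serum response factor, rose (1.54, SE 0.17, adjusted p = 6.65e-07) and Mapk3, an ERK kinase gene, fell (−0.48, SE 0.13, adjusted p = 0.0102). Mrtfb also rose there with ligand blockade (0.82, SE 0.16, adjusted p = 0.00724), and between the antibodies Mrtfb was higher (0.72, SE 0.16, adjusted p = 0.00371) and Mapk3 lower (−0.42, SE 0.13, adjusted p = 0.0325) with receptor blockade. In Th1 2 of 28 rose and 3 fell, a smaller share than the 34.4% of all genes. Mapk3 was among the former (0.44, SE 0.10, adjusted p = 0.00221) and Hras, a small GTPase gene, among the latter (−0.64, SE 0.12, adjusted p = 0.00111). Between the antibodies 2 of 28 were higher and 3 lower in Th1, Mapk3 (0.35, SE 0.10, adjusted p = 0.0155) and Map2k1, a MEK kinase gene (−0.53, SE 0.14, adjusted p = 0.0124), among them. Of the 9 NR4A and EGR partners, 3 of 6 rose in Th1 with receptor blockade, beside the same 34.4%, Rxra, a retinoid receptor that pairs with Nr4a1, among them (1.34, SE 0.18, adjusted p = 4.47e-05) and also Nab2, an EGR corepressor gene (0.79, SE 0.25, adjusted p = 0.0261). Rxra was also higher than with ligand blockade in Th1 (1.03, SE 0.18, adjusted p = 0.000847). Of the genes named here, Maff, Nr4a2, Nr4a3 and Fosl2 stand in more than 1 list.

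The genes whose pattern was most like that of the 10 were found over 99 sums of 13 labels, each gene taken as its deviation from its label's mean. Of 8805 genes, Amn1 had the highest Pearson r with the mean of the 10 (0.497), followed by Kdsr (0.485), Kdm2a (0.484), Nebl (0.478), Cntfr (0.471) and Swt1 (0.466). Within the set, the closest pairs were Fos and Junb (0.552), Junb and Ier3 (0.544) and Junb and Ier2 (0.540). The sums share pools, depth and the treatment groups, so these values are a description.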

How the data were processed

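Single cells of 9 thyroid pools were captured with the 10x 3′ kit (version 2), per the labels' protocols. Per the submitters' processing notes, Cell Ranger and GRCm38 were used. The deposited table holds raw UMI counts per gene and cell, and a deposited annotation gives each cell's pool and cell label. How the labels were made and whether doublets were removed is not given in the sources used here, and no doublet caller was run. The analysis kept all 10186 cells (500 to 131347 UMIs).

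UMIs were summed per pool and label (at least 20 cells). edgeR 4.0.16 in R 4.3.3 (filterByExpr, TMM, quasi-likelihood test, 3 group means) was run on all genes of a label with at least 2 pools a compared group. P-values were adjusted by Benjamini-Hochberg over all genes tested, and 0.05 was the threshold. Interaction fits had a term per pool. The variation was divided on the log2 CPM scale (prior count 2). Shares of cells were taken after seeded thinning to 1000 UMIs, leaving out shallower cells. Intervals cover counting error only. Pools of 1 group differed by more than sampling noise (chi-square per degree of freedom 1.39 to 8.08). On simulated data the Th1 fit recovered 82% of 2-fold changes among 10420 genes, and the fit of Th1 minus EC1 31% of 10875.

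The members and lists were chosen with earlier results of these data known. All 10 members are described. Of the other lists, called genes with the 2 largest changes in each direction per comparison are named in Th1 and EC1, and the 6 non-members of at least 10 CPM with the highest r are named for likeness. Some results of the upstream list are not reported here. Alternatives were DESeq2 1.42.0, its size factors, no filter, cells of at least 2000 UMIs, a heat shock covariate, the groups compared alone, series B alone, the range of sample names as a term, a replicate block and each pool left out. Promoter sequences are from RefSeq.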

Additional observations from a re-analysis of the deposited data

Results flagged for a closer look

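In 10 cases the change of a member against RW differed between 2 cell labels by the test of the difference itself, and each difference is given in log2 units. For F minus EC1 with ligand blockade the differences were 3.70 for Fos, 1.96 for Junb and 1.21 for Ier2. For F minus EC1 with receptor blockade they were 6.08 for Nr4a1, 3.66 for Fos, 1.80 for Ier2, 1.56 for Junb and −1.12 for Jund. For Th1 minus EC1 with receptor blockade they were −0.89 for Jun and −0.81 for Jund. For F minus EC1, 0.471% of all genes were called with ligand and 5.67% with receptor blockade. For Th1 minus EC1 with receptor blockade 8.69% were. The pair of F and EC1 was chosen after the calls were seen. The ligand blockade call of Ier2 was kept in 4 of 9 other settings, and those of Jun and Jund in 6 and 9 of 12. The F values rest on 26 to 51 cells a pool in RW and 33 to 47 in aN1aN2. The cause of the differences was not tested.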

How the results depend on the processing

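With ligand blockade 4 member tests were called. The number was 2 with DESeq2, 2 with the heat shock covariate, 2 with only the groups compared, 15 without the filter on low counts, 11 with series B alone, and 1 to 8 when 1 pool was left out. With receptor blockade 12 were called, against 3 with the heat shock covariate and 24 without the filter. Between the antibodies 7 were called, against 2 among cells with at least 2000 UMIs, 4 with the heat shock covariate and 16 without the filter. Calls over all genes in this comparison went with the covariate to 341 from 2374 in Th1 and to 43 from 775 in F. In EC1 they went to 1282 from 1268, and in EC4 to 411 from 533. Without the filter they were 2537 in Th1, 907 in F, 1410 in EC1 and 537 in EC4. At 2000 UMIs the comparison could not be fitted in EC4, EC2 and SM, so 5 of the 7 were not tested again. Of the 16 calls, over all comparisons, that could be recomputed there, 15 were kept. For Th1 minus EC1 the ligand blockade count of 0 became 2 without the filter and 0 to 3 with 1 pool left out. The receptor blockade count of 2 became 1 among cells with at least 2000 UMIs, 4 without the filter and 0 to 4 with 1 pool left out. For F minus EC1 with ligand blockade the count of 3 was 2 to 6 with 1 pool left out, and the receptor blockade count of 5 stayed within 1.5 times. Calls over all genes moved as well: with ligand blockade EC1 had 134 calls, 356 without the filter and 632 in series B alone, and Th1 had 65, 424 and 649. Without the filter more members and other genes are tested. With a prior count of 0.5 the pool part of the variation was 5.52%, against 5.02%. No called change reversed its direction in these settings. Of the 23 calls that could be recomputed with the heat shock covariate 8 were kept, of 23 with DESeq2 17, and of 25 with its size factors 25. With the covariate calls over all genes also fell, for receptor blockade to 272 from 3653 in Th1, 190 from 958 in F and 242 from 1664 in EC1. Some lost calls, such as Nr4a1 in EC1 (−4.39) and Jun in Th1 (−1.22), were as large as without it. Others were smaller with it, among them Fos (1.56), Junb (0.53), Ier2 (0.53) and Nr4a1 (1.5) in F with receptor blockade.

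RW 1 and RW 2 share numbers with aN1aN2 1 and aN1aN2 2, but deviations of equal numbers correlated at −0.0113 to 0.0177 in Th1 and EC1. Whether these pools share more than a number, such as a day of handling, cannot be told from these values. With the replicate block 16 receptor blockade calls were made, and 14 on the same 4 pools without it. Over all genes these fits called 1692 and 1649 of 8095 in EC1, 534 and 518 of 3002 in EC4, 921 and 675 of 3871 in F and 3524 and 3370 of 10342 in Th1. All 12 calls were kept under the replicate block. Depth limits the low values: Nr4a1 in aN1aN2 had 7 UMIs in EC1 and 4 in EC4, so its fold there has a wide counting error.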
